A study of Mus musculus with 18 samples.

Results

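The genes described here are the chemokines and chemokine receptors of mouse brain myeloid cells. They were taken from a count table of 57010 genes as rows whose symbol is Ccl, Cxcl, Xcl, Ccr, Cxcr, Xcr or Ackr followed by a number and at most 1 letter. Of these, 56 genes are described, 37 ligands and 19 receptors, and 32 of them (23 ligands and 9 receptors) had enough counts to be tested. RNA was measured in CD11b-selected cells from brains of male WT mice, 3 libraries in each of 6 groups. Aged mice (18 to 20 months old) with a stroke received bexarotene or vehicle, aged mice without a stroke received bexarotene or vehicle, and so did young mice (2 to 4 months old) without a stroke. Bexarotene activates RXR, the retinoid X receptor. It was injected into the peritoneum at 5 mg/kg, with the first dose 24 hours after surgery and further daily doses for 2 days, and the vehicle was 3% DMSO in saline. Cells of all groups were taken on day 3, after papain digestion and depletion of Ly6G-bearing neutrophils with beads, and there was no young stroke group among the samples used here. The labels call the libraries biological replicates, and the sources used here do not say which surgery, if any, mice without a stroke underwent.

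Chemokines are small secreted proteins that direct the movement of leukocytes by binding G protein-coupled receptors on them. CC ligands act mainly on monocytes, macrophages and lymphocytes, ELR CXC ligands recruit neutrophils through Cxcr2, and the ligands of Cxcr3 are induced by interferon and attract T and NK cells. Atypical receptors bind chemokines without G protein signalling and limit their amount. In the brain, microglia and the myeloid cells that enter after injury are major sources of these ligands.

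Stretches of 250 bases just before the transcription start are shown for 6 ligands on which the comparisons below turn. They are Ccl3 and Cxcl13 (higher with age), Ccl6 and Ccl9 (neighbouring genes, of which Ccl6 rose with bexarotene), and Cxcl2 and Cxcl10 (among the largest rises with stroke). Sequences and positions are from RefSeq, build GRCm38.p6, and are written 5′ to 3′ on the strand of the gene: Ccl3 at chr11:83649379-83649628 (minus strand), Ccl6 at chr11:83593088-83593337 (minus), Ccl9 at chr11:83578637-83578886 (minus), Cxcl2 at chr5:90903649-90903898 (plus), Cxcl10 at chr5:92348890-92349139 (minus) and Cxcl13 at chr5:95956689-95956938 (plus). Capitals mark every match, on either strand, to a kappaB motif (GGGANNTTCC), an interferon response element (GAAANNGAAA), an AP-1 motif (TGANTCA) or the half-site AGGTCA that RXR and its partner receptors bind.
Ccl3: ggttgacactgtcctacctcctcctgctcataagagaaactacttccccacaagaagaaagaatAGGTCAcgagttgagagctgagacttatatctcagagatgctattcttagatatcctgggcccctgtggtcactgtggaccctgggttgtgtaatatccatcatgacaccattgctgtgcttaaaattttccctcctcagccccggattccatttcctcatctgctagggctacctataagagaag
Ccl6: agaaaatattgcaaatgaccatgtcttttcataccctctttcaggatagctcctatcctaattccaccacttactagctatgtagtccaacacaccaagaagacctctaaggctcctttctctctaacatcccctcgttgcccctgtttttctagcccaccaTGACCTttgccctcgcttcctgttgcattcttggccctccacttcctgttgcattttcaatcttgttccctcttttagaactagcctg
Ccl9: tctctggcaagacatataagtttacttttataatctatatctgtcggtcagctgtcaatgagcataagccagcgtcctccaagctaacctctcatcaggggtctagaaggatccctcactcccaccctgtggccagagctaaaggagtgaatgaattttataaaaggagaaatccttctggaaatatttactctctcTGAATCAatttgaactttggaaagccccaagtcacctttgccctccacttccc
Cxcl2: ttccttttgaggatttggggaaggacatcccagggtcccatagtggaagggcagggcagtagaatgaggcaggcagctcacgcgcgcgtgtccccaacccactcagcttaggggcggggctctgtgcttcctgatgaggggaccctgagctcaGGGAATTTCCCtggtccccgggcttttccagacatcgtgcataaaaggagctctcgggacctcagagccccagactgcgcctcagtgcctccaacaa
Cxcl10: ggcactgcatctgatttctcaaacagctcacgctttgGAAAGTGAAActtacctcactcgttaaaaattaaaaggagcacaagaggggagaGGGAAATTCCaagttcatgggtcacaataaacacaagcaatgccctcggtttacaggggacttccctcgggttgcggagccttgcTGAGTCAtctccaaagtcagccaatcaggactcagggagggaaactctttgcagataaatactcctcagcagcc
Cxcl13: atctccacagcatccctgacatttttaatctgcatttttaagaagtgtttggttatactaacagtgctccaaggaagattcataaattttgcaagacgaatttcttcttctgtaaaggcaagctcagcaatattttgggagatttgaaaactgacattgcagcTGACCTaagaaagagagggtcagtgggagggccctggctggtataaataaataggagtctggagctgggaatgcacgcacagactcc
The Ccl3 and Cxcl13 stretches hold 1 half-site each and the Ccl6 stretch holds 1, while the Ccl9 stretch holds an AP-1 motif and no half-site. In Cxcl2 the capitals are 2 overlapping kappaB matches, one on each strand. Cxcl10 holds an interferon response element, a kappaB motif and an AP-1 motif, in that order towards the start. Of the 56 genes, 42 had such a stretch in the table, 49 stretches in all. A kappaB match stood in 12.2% of these, against 1.21% of 32851 stretches of all genes, and a half-site in 30.6%, against 14.0%. The shares were 6.12% against 2.98% for the interferon element and 12.2% against 6.75% for AP-1. These shares count stretches, including some of genes at 0 counts such as Ccl1. Every stretch shown holds a match, while those of the tested genes Ccl12, Ccl8, Ccr1, Cxcr4, Ackr3, Cxcl12, Ccr9 and Cxcr3 hold none. Ccl2, Ccl4 and Ccl7 had no such stretch. A match is a description of the letters and not a measured binding site.

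Library totals ran from 16206144 to 29359943 counts with stroke and from 7582511 to 11852638 without. Levels are given as CPM (counts for every 1000000), scaled by the total over the genes tested and a normalization factor. The selection gene Itgam, which encodes CD11b, lay at 387.5 to 712 CPM, and the microglial genes P2ry12 (1659 to 14160 CPM) and Tmem119 (1510 to 6845 CPM) were abundant in every library. Stroke libraries stood apart from the others on principal component 1, which took 59.9% of the variance. Marker lists of other cells were summed per library. They lay at 796 to 1901 CPM for border-associated macrophages, 38.3 to 3619 CPM for infiltrating monocytes and macrophages, 676 to 3585 CPM for neutrophils and 94.8 to 526 CPM for dendritic cells. Lymphocyte lists lay at 3.10 to 12.5 CPM for T cells, 1.72 to 29.9 CPM for NK cells and 279 to 615 CPM for B cells. Non-immune lists lay at 21.9 to 49.9 CPM for endothelial cells, 110.0 to 969 CPM for astrocytes, 181 to 307 CPM for oligodendrocytes and 145.5 to 3268 CPM for choroid plexus, where in 5 of the 6 groups the library numbered 1 was the highest. In bulk RNA of this kind, fewer cells of a type and less RNA per cell cannot be told apart.

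Summed over the 37 ligands, chemokine transcripts reached 3954 ± 682 CPM in aged stroke bexarotene and 4414 ± 312 CPM in aged stroke vehicle cells (SD, n = 3 each). They lay at 1124 ± 152 CPM in aged bexarotene, 917 ± 125 CPM in aged vehicle, 921 ± 161 CPM in young bexarotene and 619 ± 73.4 CPM in young vehicle cells. The 15 signalling receptors described here together averaged 573 ± 48.3 CPM in aged stroke vehicle cells and less elsewhere, down to 55.8 ± 2.92 CPM in aged vehicle cells (SD, n = 3 each). Per kilobase of exon, Ccl6 and Ccl12 were the leading ligands. Ccl12 led in aged stroke bexarotene (1033 CPM per kilobase), aged stroke vehicle (1617) and aged vehicle cells (213.5), and Ccl6 led in aged bexarotene (261.5), young bexarotene (219.6) and young vehicle cells (105). In aged bexarotene and young vehicle cells the per-kilobase ranges of Ccl6 and Ccl12 overlapped, and in the aged stroke groups Ccl12 lay above Ccl4 and Ccl6 in every library. Of these receptors Ccr1 had the highest mean per kilobase in all 6 groups, 129 in aged stroke bexarotene and 153 in aged stroke vehicle cells and 15.0 to 24.9 in the groups without a stroke.

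**Figure D1:**
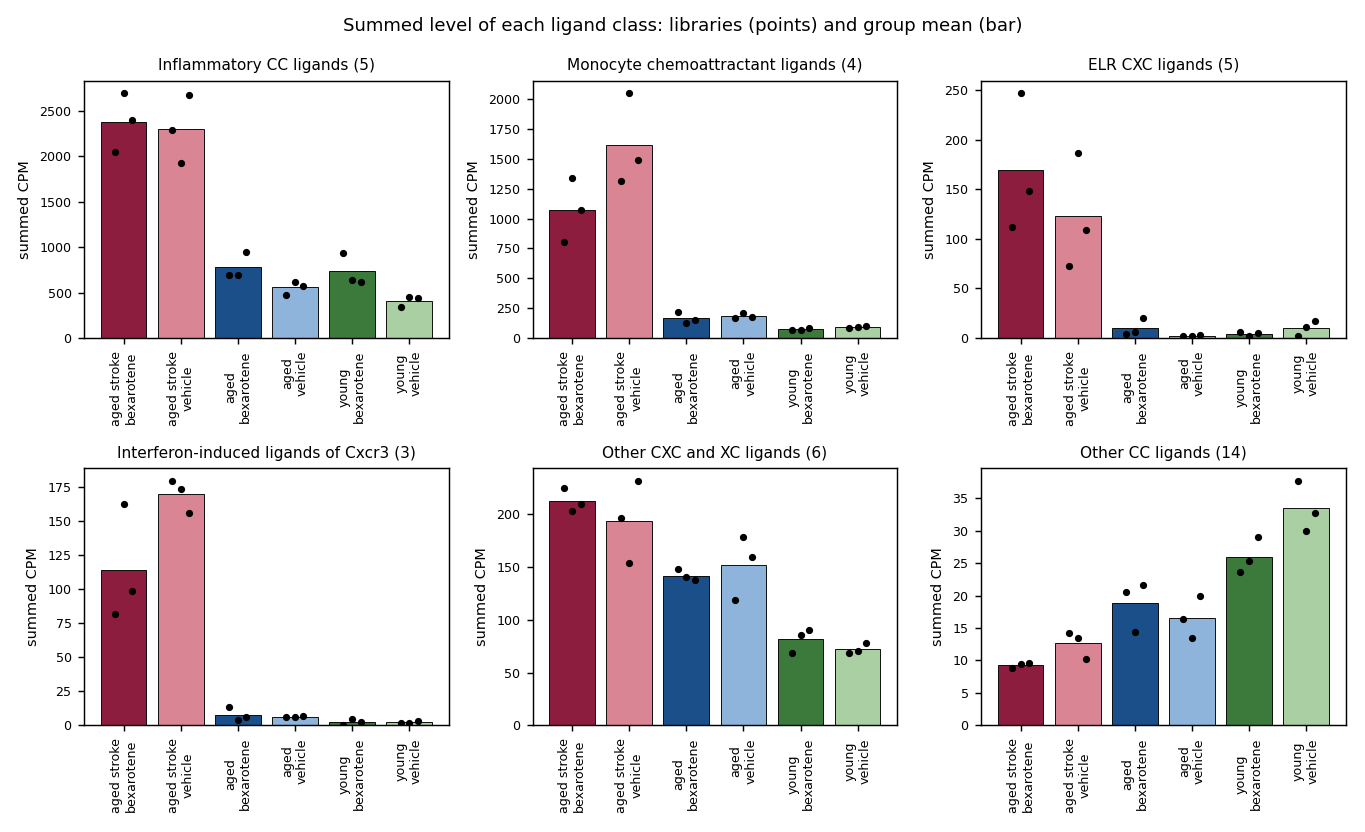
Summed CPM of 6 classes of chemokine ligands, with the number of genes of each class in brackets. Points are libraries, bars are means of 3, the panels have separate vertical scales starting at 0, and the 6 stroke libraries are the highest in the 4 classes of inflammatory CC ligands (Ccl3, Ccl4, Ccl5, Ccl6 and Ccl9), monocyte chemoattractants, ELR CXC ligands and Cxcr3 ligands.

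Cells of aged mice held more transcripts of 6 ligands than cells of young mice when both received vehicle: Ccl3, Ccl4, Ccl12, Cxcl13, Cxcl14 and Cxcl16. No receptor was called. Under bexarotene, in libraries that share none with the vehicle comparison, 6 ligands rose as well, and 5 of them were the same (83.3% of each list). The one called with vehicle alone was Cxcl14 and the one called under bexarotene alone was Ccl8, and the difference between the 2 age effects was not called for either gene (-1.49 ± 0.59 for Cxcl14 and 0.46 ± 0.68 for Ccl8, log2 ± SE, bexarotene minus vehicle). When same-numbered libraries were paired by a replicate block in edgeR, Ccl8 missed the threshold under bexarotene (adjusted p = 0.0521) and the 5 shared ligands kept their calls.

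Ccl3 and Ccl4, macrophage inflammatory proteins, were the members of the class of inflammatory CC ligands that rose. Ccl3 lay at 80.3, 88.3 and 70.4 CPM in aged vehicle libraries, against 26.2, 17.9 and 23.2 CPM in young vehicle libraries. Ccl4 lay at 83.2, 121 and 103 CPM in aged vehicle libraries, against 40.7, 29.8 and 31.2 CPM in young vehicle libraries. Neither gene's groups overlapped. The log2 fold change was 1.82 ± 0.27 (SE) for Ccl3 (adjusted p = 0.00164, edgeR quasi-likelihood test with Benjamini-Hochberg adjustment over 15528 genes, as for all adjusted p-values here unless another tool is named). It was 1.59 ± 0.24 for Ccl4 (adjusted p = 0.00139). Under bexarotene Ccl3 lay at 58.5, 40.1 and 52.9 CPM in aged libraries, against 18.9, 14.4 and 24.3 CPM in young libraries, and rose by 1.39 ± 0.28 (log2, adjusted p = 0.0223). Ccl4 rose by 1.53 ± 0.24 (66.8 ± 15.6 CPM in aged bexarotene and 23.0 ± 3.33 CPM in young bexarotene cells, SD, n = 3 each). The other members of the class were not called with age in either setting: in vehicle cells the log2 fold change was 0.34 ± 0.42 for Ccl5, 0.35 ± 0.19 for Ccl6 and -0.30 ± 0.24 for Ccl9, the last pair being ligands of Ccr1 in rodents.

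Among the monocyte chemoattractants Ccl12 rose. It lay at 116, 119 and 109 CPM in aged vehicle libraries, against 35.9, 48.3 and 51.0 CPM in young vehicle libraries (1.35 ± 0.24, adjusted p = 0.00528). Under bexarotene it lay at 128, 74.3 and 93.7 CPM in aged libraries, against 42.0, 41.3 and 50.7 CPM in young libraries (1.14 ± 0.24). Its neighbour Ccl8 varied between aged mice, with 36.8, 18.4 and 8.52 CPM in aged bexarotene libraries, against 4.31, 5.13 and 3.43 CPM in young bexarotene libraries (2.31 ± 0.49, adjusted p = 0.0343). With vehicle Ccl8 lay at 11.1, 32.0 and 18.5 CPM in aged libraries, against 6.20, 4.45 and 6.20 CPM in young libraries, and missed the threshold (1.85 ± 0.47, adjusted p = 0.0636), while DESeq2 called it (adjusted p = 3.37e-04). In both settings every aged library lay above every young one. Ccl2, the best known monocyte chemoattractant, averaged 20.2 ± 6.35 CPM in aged vehicle and 16.6 ± 2.37 CPM in young vehicle cells (SD, n = 3 each) and was not called, and neither was Ccl7.

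Cxcl13, which draws B cells through Cxcr5, was almost absent from young cells. It lay at 6.25, 13.4 and 13.2 CPM in aged vehicle libraries, against 0, 0 and 0.175 CPM in young vehicle libraries. The counts were 344 in aged vehicle and 2 in young vehicle cells over the 3 libraries, a ratio of 159 with an exact 95% counting interval of 43.8 to 1321 (adjusted p = 5.47e-05). Under bexarotene they were 542 in aged and 2 in young cells, a ratio of 247 (68.2 to 2048, counting error only). Cxcl14 lay at 2.54, 8.32 and 7.77 CPM in aged vehicle libraries, against 1.05, 1.62 and 0.524 CPM in young vehicle libraries (2.60 ± 0.43, adjusted p = 0.00214). Cxcl16, a chemokine anchored in the membrane that binds Cxcr6, lay at 108, 154 and 134 CPM in aged vehicle libraries, against 62.0, 65.7 and 75.0 CPM in young vehicle libraries (0.97 ± 0.14, adjusted p = 6.33e-04). Cxcl16 had the smallest fold of the 6, and no group pair of these 3 genes overlapped.

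Genes near the threshold with age lay on both sides of 0. Cxcl10, an interferon-induced ligand of Cxcr3, averaged 5.60 ± 0.46 CPM in aged vehicle and 1.58 ± 0.46 CPM in young vehicle cells (SD, n = 3 each, adjusted p = 0.121). Ccl24, a ligand of Ccr3, averaged 8.73 ± 2.33 CPM in aged vehicle and 20.7 ± 1.00 CPM in young vehicle cells (log2 fold change -1.25 ± 0.32, adjusted p = 0.0571). DESeq2 called both, Cxcl10 higher (adjusted p = 0.0247) and Ccl24 lower (adjusted p = 0.0126).

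In all, 6 of the 32 tested genes were called with age in vehicle cells and all 6 were higher, against 1.70% of all genes called and 1.26% called higher. Under bexarotene 6 were called and all were higher, against 0.960% of all genes called and 0.676% higher. The median log2 fold change over the 32 was -0.09 in vehicle and 0.63 in bexarotene cells, beside -0.01 over all genes tested in each. Cxcl13, called in both comparisons, lay at 0.175 CPM or less in every young library and had enough counts to be tested through aged libraries. These counts, the medians and the overlap of both lists are therefore not independent of the count filter. Without 1 library, the vehicle count was 5 to 7 and the bexarotene count 2 to 4. In vehicle cells Ccl12 lost its call without young vehicle library 1 (1.20, adjusted p = 0.0525). Under bexarotene, Cxcl16 lost its call without any 1 of the 6 libraries (adjusted p = 0.0560 to 0.229), Ccl12 without any of 5 (0.0601 to 0.152), Ccl8 without any of 5 (0.0740 to 0.162) and Ccl3 without any of 4 (0.0777 to 0.125). Ccl12 kept its call without aged bexarotene library 2, Ccl8 kept it without aged bexarotene library 3, and Ccl3 kept it without aged bexarotene library 2 or young bexarotene library 3. With the replicate number as a block, Ccl8 missed the threshold under bexarotene (2.29, adjusted p = 0.0521). Without the libraries numbered 1 in every group, Ccl3 was not called in vehicle cells (1.93, adjusted p = 0.153) and Cxcl13 was the one of the 32 called under bexarotene. Under bexarotene 3 of the 10 markers of border-associated macrophages were called lower with age, beside 44 of all 15528 genes. With vehicle 3 of the 10 were also called lower, beside 68 of all 15528 genes. They summed to 796 to 948 CPM in aged vehicle and 1170 to 1391 CPM in young vehicle libraries. The T cell list, with 2 of 10 genes tested and none called, summed to 4.44 to 5.87 CPM in aged vehicle and 7.63 to 12.5 CPM in young vehicle libraries. Neither list overlapped between these groups. The neutrophil list, with none of 10 called, overlapped, at 676 to 938 CPM in aged vehicle and 842 to 1723 CPM in young vehicle libraries. The part of these cells in the results was not tested.

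**Figure D2:**
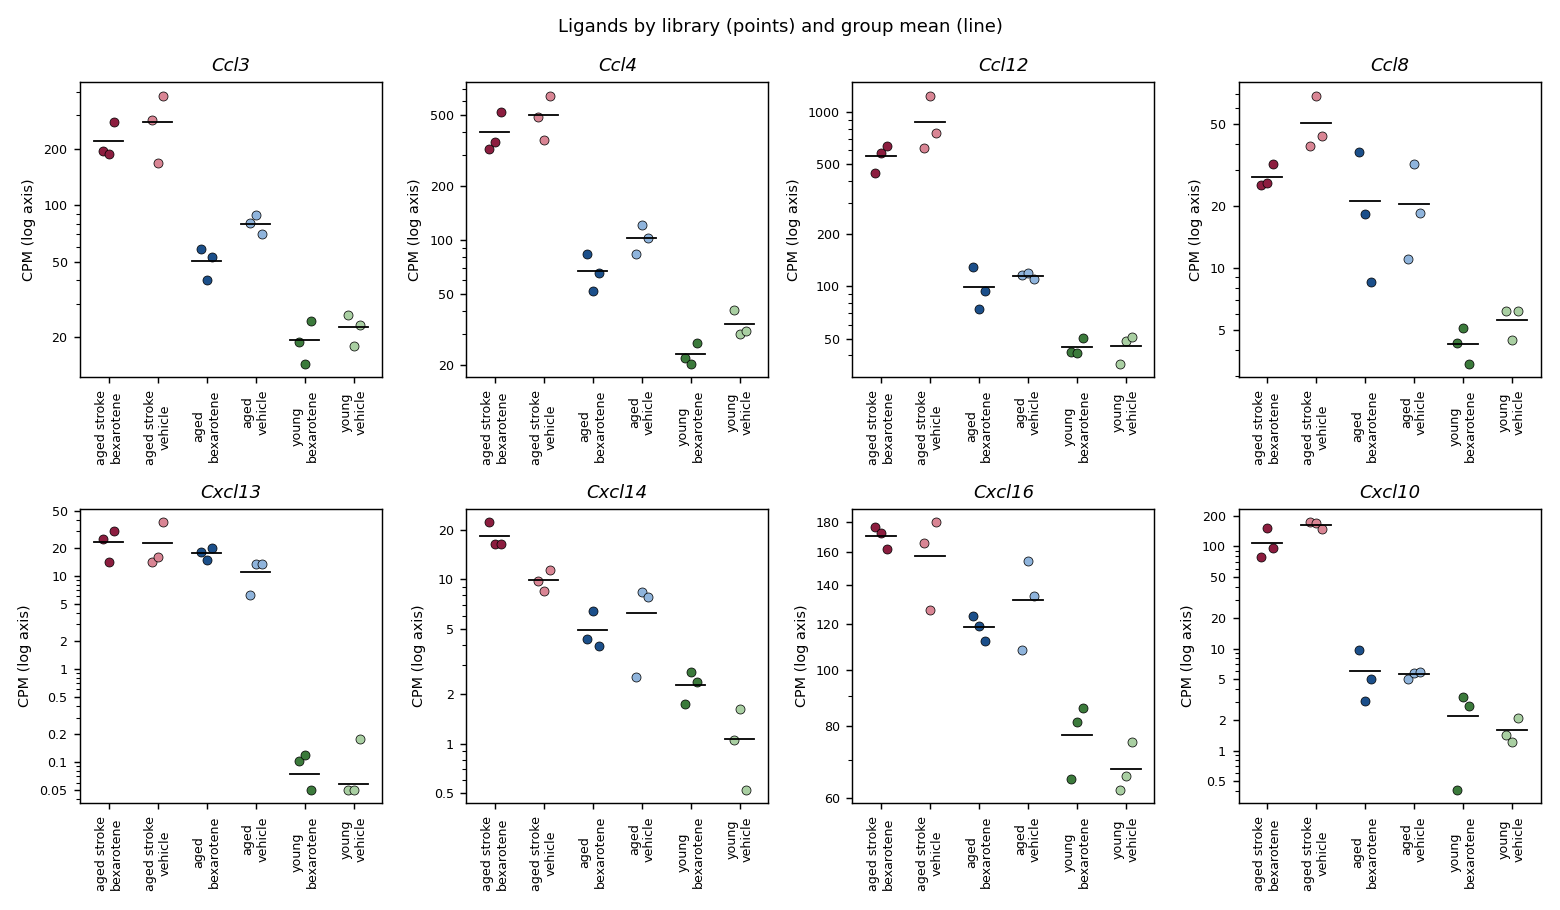
CPM of 8 ligands in each library on a log axis, with 0 drawn at 0.05, points for libraries and lines for group means. In the panels of Ccl3, Ccl4, Ccl12, Ccl8, Cxcl13 and Cxcl16 every aged library lies above every young library, and Cxcl13 is at 0 to 0.175 CPM in young cells.

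Ccl6, a Ccr1 ligand of rodents and the leading chemokine per kilobase in young cells, rose with bexarotene in young and in aged mice without a stroke, and no other of the 32 genes was called by edgeR in any of the 3 settings. In young mice Ccl6 lay at 501, 347 and 334 CPM in bexarotene libraries, against 143, 201 and 222 CPM in vehicle libraries (log2 fold change 1.06 ± 0.19 SE, adjusted p = 0.0156). In aged mice without a stroke it lay at 398, 422 and 589 CPM in bexarotene libraries, against 206, 259 and 256 CPM in vehicle libraries (0.97 ± 0.19, adjusted p = 0.0474). The groups did not overlap at either age. After stroke it lay at 979, 1324 and 1004 CPM in bexarotene libraries, against 899, 939.9 and 1050 CPM in vehicle libraries, and was not called (0.20 ± 0.19, 95% interval -0.20 to 0.59). The stretch before Ccl6 shown above holds its half-site 88 to 83 bases before the start. A half-site stood in 14.0% of the stretches of all genes and in 30.6% of those of the genes described here, and its part in the Ccl6 values was not tested.

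Its neighbour Ccl9, also a Ccr1 ligand, lay at 396, 255 and 234 CPM in young bexarotene libraries, against 129, 195 and 165 CPM in young vehicle libraries. The groups did not overlap and the adjusted p was 0.168 (0.86 ± 0.24), while DESeq2 called Ccl9 higher (adjusted p = 0.0166). In aged mice Ccl9 averaged 193 ± 43.4 CPM with bexarotene and 132 ± 25.9 CPM with vehicle (SD, n = 3 each, 0.54 ± 0.24, not called). Their receptor Ccr1 lay at 69.5, 63.0 and 77.0 CPM in aged bexarotene libraries, against 37.8, 44.5 and 45.4 CPM in aged vehicle libraries (0.71 ± 0.26, adjusted p = 0.557), and it was called in a fit to these 2 groups alone (adjusted p = 0.0411). In young mice Ccr1 lay at 48.4, 66.0 and 97.4 CPM with bexarotene and 50.9, 55.8 and 69.9 CPM with vehicle, so that the groups overlapped.

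**Figure D3:**
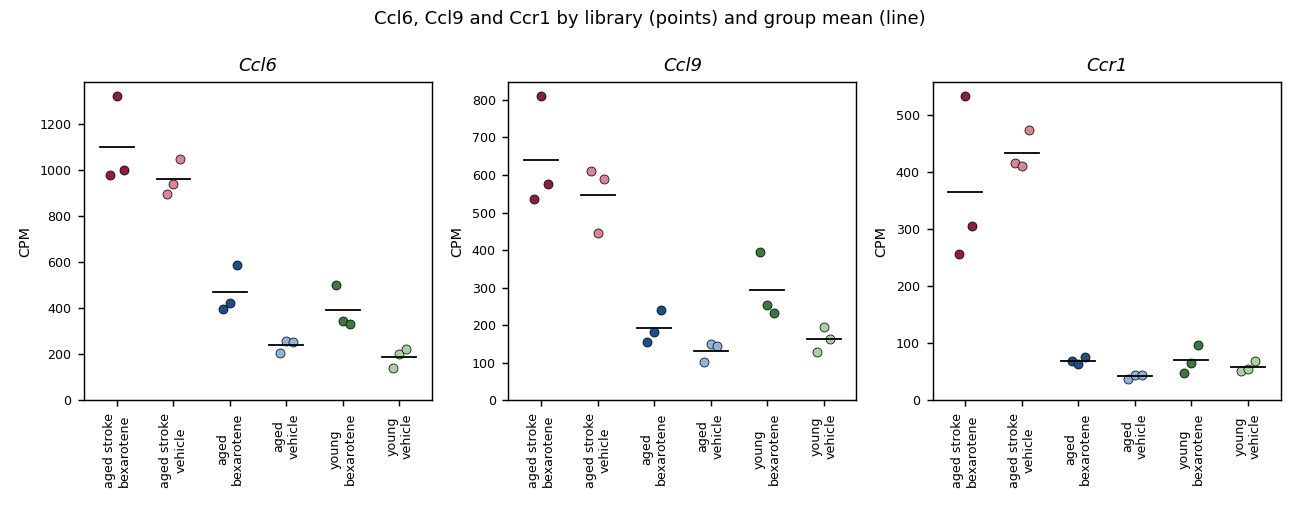
CPM of Ccl6, Ccl9 and their receptor Ccr1 in each library, with points for libraries and lines for group means, on axes from 0. Ccl6 lies higher with bexarotene than with vehicle in every library of young mice and of aged mice without a stroke, and the stroke groups overlap.

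None of the ligands that rose with age was called with bexarotene. In aged mice without a stroke Ccl3 averaged 50.5 ± 9.43 CPM with bexarotene and 79.6 ± 8.93 CPM with vehicle (SD, n = 3 each, -0.66 ± 0.26, adjusted p = 0.654). Ccl4 averaged 66.8 ± 15.6 CPM with bexarotene and 103 ± 19.1 CPM with vehicle (-0.62 ± 0.23, adjusted p = 0.589). The aged vehicle libraries serve here and in the age comparison, so the values of both comparisons are not independent. Cxcl13 averaged 17.5 ± 2.70 CPM with bexarotene and 11.0 ± 4.08 CPM with vehicle in aged mice (0.67 ± 0.39, not called). Ackr3, which scavenges Cxcl12, had log2 fold changes of 1.75 ± 0.51 in young mice, 1.22 ± 0.53 in aged mice and 1.21 ± 0.45 after stroke, none called (adjusted p = 0.196, 0.716 and 0.595). Cxcl12 had -1.04 ± 0.61, -1.60 ± 0.65 and -1.59 ± 0.56 in the same order, none called.

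After stroke, the 4 monocyte chemoattractants had bexarotene fold changes below 0, none of them called. Ccl12 lay at 447, 579 and 638 CPM in stroke bexarotene libraries, against 621, 1235 and 750.3 CPM in stroke vehicle libraries (-0.65 ± 0.23, adjusted p = 0.559). Ccl7 lay at 87.5, 184 and 69.7 CPM in stroke bexarotene libraries, against 182.5, 224 and 180.2 CPM in stroke vehicle libraries (-0.79 ± 0.29, adjusted p = 0.597). Without stroke bexarotene library 2 Ccl7 was called lower (-1.31, adjusted p = 0.0216). Ccl8 lay at 25.2, 25.9 and 32.2 CPM in stroke bexarotene libraries, against 39.1, 68.7 and 44.0 CPM in stroke vehicle libraries (-0.86 ± 0.40, adjusted p = 0.776). Ccl2 lay at 246, 546 and 330.1 CPM in stroke bexarotene libraries, against 471, 521 and 516 CPM in stroke vehicle libraries (-0.43 ± 0.27). The markers of infiltrating monocytes and macrophages summed to 1303, 3619 and 2311 CPM in stroke bexarotene libraries, against 2519, 2313 and 2863 CPM in stroke vehicle libraries. Library 2 of the bexarotene group was the highest of its group in Ccl2, Ccl7 and in this list, while Ccl12 and Ccl8 were highest in library 3. The part of these cells in the values was not tested.

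Of the 32 genes, 1 was called with bexarotene in young mice (0.509% of all genes) and 1 in aged mice (0.258%). After stroke edgeR called 0 (0.0580% of all genes), with 7 at an unadjusted p under 0.05 and 0 by DESeq2. Ccl6 lost its call in young mice without young vehicle library 1 or 2 or young bexarotene library 1 (0.85 to 1.11, adjusted p = 0.0596 to 0.106). Nor was it called when the 2 young groups were fitted alone (adjusted p = 0.0956) or without the libraries numbered 1 (0.68, adjusted p = 0.228). In aged mice it lost its call without any 1 of the vehicle libraries or bexarotene library 2 or 3 (0.77 to 1.03, adjusted p = 0.0812 to 0.311) and with another scaling of the libraries (0.96, adjusted p = 0.0514). In aged mice the neutrophil markers summed to 1515, 1050 and 2024 CPM in bexarotene libraries, against 938, 846 and 676 CPM in vehicle libraries, and those of infiltrating monocytes and macrophages to 138, 113 and 232 CPM in bexarotene libraries, against 66.2, 64.0 and 46.1 CPM in vehicle libraries. In young mice both lists overlapped between treatments, while the astrocyte markers summed to 969, 595 and 683 CPM in bexarotene libraries, against 381, 450.0 and 394 CPM in vehicle libraries. In aged mice the astrocyte list also summed higher in every bexarotene library, at 587, 512 and 756 CPM in bexarotene libraries, against 420.2, 346 and 509 CPM in vehicle libraries. The median log2 fold change over its 8 genes was -0.17 in young and -0.12 in aged mice, so the sums do not stand for every gene of the list. At either age edgeR called 0 of them, while DESeq2 called 1 in young and 0 in aged mice. The part of these cells in the Ccl6 values was not tested.

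Whether the bexarotene effect differed between settings was tested directly. Between aged and young mice edgeR called 0 of the 32 genes (0% of all genes), with 4 at an unadjusted p under 0.05 and 0 by DESeq2. Between aged mice with and without a stroke edgeR called 0 again (0% of all genes), with 5 at an unadjusted p under 0.05 and 0 by DESeq2. For Ccl6 the log2 difference between stroke and no stroke was -0.77 ± 0.27 SE (unadjusted p = 0.0105, adjusted p = 1.00), and for Ccr1 it was -0.96 ± 0.35 (unadjusted p = 0.0147, adjusted p = 1.00).

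Most of the tested chemokine genes rose with stroke, in 2 comparisons of aged mice that share no library. With vehicle 21 of the 32 genes rose and 3 fell, and under bexarotene 20 rose and 3 fell. The 2 lists share 19 genes, 79.2% of the vehicle list and 82.6% of the bexarotene list, each with the same sign. Among all genes, 48.3% were called with vehicle (27.2% higher and 21.1% lower) and 48.0% under bexarotene (26.8% higher and 21.2% lower). The median log2 fold change over the 32 was 2.16 with vehicle and 1.72 under bexarotene, also with genes near 0 set to a floor of 3 counts, beside 0.02 and 0.00 over all genes tested. Cxcl3, Cxcl11, Ccr7, Cxcr5, Ccr9 and Ccl22 lay at 1.115 CPM or less in every library without a stroke and passed the count filter through stroke libraries. The first 5 are among the 21 that rose with vehicle. Cxcl17 and Ccl27a lay at 0.867 CPM or less in every stroke library and passed the filter through libraries without a stroke. Both are among the 3 that fell with vehicle. The counts and medians of rises and falls are therefore not independent of the filter. Cells of stroke brains held more of the markers of infiltrating monocytes and macrophages (2313 to 2863 CPM in stroke vehicle and 46.1 to 66.2 CPM in aged vehicle libraries, all 10 genes called higher). Microglial markers summed to 18840 to 18960 CPM in stroke vehicle and 37430 to 42550 CPM in aged vehicle libraries, and dendritic cell markers to 424 to 493 CPM in stroke vehicle and 119 to 155 CPM in aged vehicle libraries. Under bexarotene the monocyte and macrophage list summed to 1303 to 3619 CPM in stroke and 113 to 232 CPM in libraries without a stroke. The part of these cells in the rises below was not tested.

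All 5 inflammatory CC ligands rose in both comparisons. Ccl6 reached 899, 939.9 and 1050 CPM in stroke vehicle libraries, against 206, 259 and 256 CPM in aged vehicle libraries (2.00 ± 0.20, adjusted p = 3.33e-07). Ccl9 reached 610.5, 445 and 589 CPM in stroke vehicle libraries, against 102, 149 and 145 CPM in aged vehicle libraries (2.05 ± 0.24). Both had no overlap between groups. Ccl4 averaged 497 ± 139 CPM in stroke vehicle and 103 ± 19.1 CPM in aged vehicle cells (SD, n = 3 each, 2.28 ± 0.24), and Ccl3 had a log2 fold change of 1.80 ± 0.26. Ccl5, which T cells and activated myeloid cells make, lay at 12.2, 7.07 and 17.5 CPM in stroke vehicle libraries, against 2.08, 2.74 and 1.92 CPM in aged vehicle libraries (2.45 ± 0.38). Under bexarotene the log2 fold changes were 1.23 ± 0.19 for Ccl6, 1.73 ± 0.24 for Ccl9, 2.58 ± 0.24 for Ccl4, 2.12 ± 0.27 for Ccl3 and 3.57 ± 0.40 for Ccl5. The T cell list summed to 4.99 to 7.37 CPM in stroke vehicle and 4.44 to 5.87 CPM in aged vehicle libraries. The NK cell list summed to 29.7, 9.08 and 29.9 CPM in stroke vehicle libraries, against 3.17, 2.84 and 5.28 CPM in aged vehicle libraries. Of its 6 tested genes 3 were called higher (Klrk1, Gzmb and Gzma), beside 27.2% of all genes. The part of NK cells, which also make Ccl5, in its values was not tested.

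The monocyte chemoattractants Ccl2, Ccl7 and Ccl12 rose in both comparisons, and Ccl8 rose with vehicle. Ccl2 lay at 471, 521 and 516 CPM in stroke vehicle libraries, against 14.1, 26.8 and 19.8 CPM in aged vehicle libraries, a log2 fold change of 4.64 ± 0.32 (adjusted p = 3.44e-08). Ccl2 also had the lowest p of the 32 genes in both stroke comparisons. Under bexarotene it lay at 246, 546 and 330.1 CPM in stroke libraries, against 24.9, 14.2 and 22.7 CPM in libraries without a stroke (4.19 ± 0.32). Ccl12, the highest of all ligands per kilobase after stroke, averaged 869 ± 324 CPM in stroke vehicle and 115 ± 5.05 CPM in aged vehicle cells (SD, n = 3 each, 2.92 ± 0.24), and it rose by 2.49 ± 0.24 under bexarotene. Ccl7 rose by 2.85 ± 0.31 with vehicle and 2.24 ± 0.31 under bexarotene. Ccl8 rose by 1.30 ± 0.42 with vehicle (adjusted p = 0.0174) and had 0.39 ± 0.41 under bexarotene, not called, and the difference between these 2 stroke effects was not called (-0.91 ± 0.58, unadjusted p = 0.139). The genes for Ccl2, Ccl7, Ccl12 and Ccl8 lie next to each other on chromosome 11, with Ccl11 between Ccl7 and Ccl12.

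Cxcl2 and Cxcl3, which recruit neutrophils through Cxcr2, rose in both comparisons, and Cxcl2 had the largest fold with vehicle among genes with more than 3 counts in aged vehicle cells. Cxcl2 lay at 65.4, 159 and 97.7 CPM in stroke vehicle libraries, against 1.36, 2.45 and 3.17 CPM in aged vehicle libraries (5.53 ± 0.79, adjusted p = 6.43e-05). Cxcl3 had 795 counts in stroke vehicle libraries and none in aged vehicle libraries, at least 150.5-fold higher with a floor of 3 counts over the group. Under bexarotene Cxcl2 lay at 92.6, 201 and 127 CPM in stroke libraries, against 4.32, 5.95 and 19.2 CPM in libraries without a stroke (3.84 ± 0.68), and Cxcl3 averaged 28.3 ± 14.4 CPM in stroke and 0.270 ± 0.468 CPM in cells without a stroke (SD, n = 3 each). The other ELR CXC ligands were low throughout, Cxcl1 at 2.01 CPM or less and Cxcl5 and Cxcl15 at 0 counts in all 18 libraries. The receptor Cxcr2 lay at 42.2, 167 and 67.0 CPM in stroke vehicle libraries, against 5.07, 3.62 and 2.49 CPM in aged vehicle libraries (4.61 ± 0.86, adjusted p = 5.76e-04). Under bexarotene the groups overlapped, at 37.5, 59.9 and 89.1 CPM in stroke libraries and 12.4, 10.2 and 40.1 CPM in libraries without a stroke (1.58 ± 0.71, adjusted p = 0.0851), and Cxcr2 was called without aged bexarotene library 3 (2.47, adjusted p = 0.0259).

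Neutrophil genes remained in the cells after Ly6G depletion and differed between libraries of a group. S100a8, an abundant neutrophil transcript, lay at 196, 795 and 349.9 CPM in stroke vehicle libraries, against 104, 89.6 and 46.8 CPM in aged vehicle libraries. In aged bexarotene cells it lay at 247, 146 and 386 CPM, and in young vehicle cells at 69.0, 138 and 338 CPM. In all 6 groups, the library with the most S100a8 also had the most Cxcr2. Cxcl2 was highest in the same library as S100a8 in the stroke vehicle, aged bexarotene and young vehicle groups and in another library in the other 3 groups. In stroke bexarotene cells Cxcl2 was highest in library 2 (201 CPM), while S100a8 was highest in library 3 (1112 CPM). The part of neutrophils in the values of Cxcr2 and Cxcl2 was not tested.

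**Figure D4:**
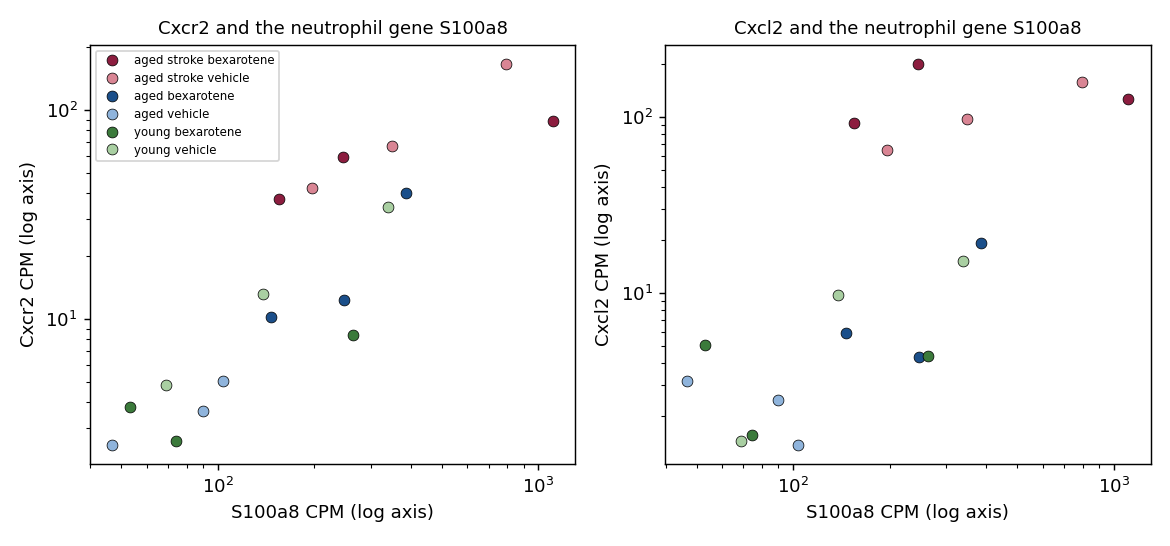
CPM of Cxcr2 (left) and Cxcl2 (right) against CPM of the neutrophil gene S100a8, 1 point per library, coloured by group, with log axes. In all 6 groups the library with the most S100a8 is also the highest for Cxcr2, and all 6 stroke libraries lie above all others for Cxcl2.

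Among ligands of Cxcr3, Cxcl10 and Cxcl11 rose in both comparisons. Cxcl10 lay at 173, 170.2 and 148 CPM in stroke vehicle libraries, against 5.07, 5.77 and 5.95 CPM in aged vehicle libraries (4.87 ± 0.40, adjusted p = 1.52e-07). Under bexarotene it lay at 79.1, 152 and 96.7 CPM in stroke libraries, against 9.78, 3.06 and 5.07 CPM in libraries without a stroke (4.21 ± 0.39). In both comparisons every stroke library lay above every library without a stroke. Cxcl11 had 187 counts in stroke vehicle and 1 in aged vehicle libraries, a ratio of 106 with a counting interval of 18.8 to 4216, and rose by 3.05 ± 1.10 under bexarotene. Cxcl9 averaged 2.48 ± 0.67 CPM in stroke vehicle and 0.752 ± 0.218 CPM in aged vehicle cells (SD, n = 3 each) and was not called in either comparison. Their receptor Cxcr3 fell, to 3.59, 2.74 and 1.58 CPM in stroke vehicle libraries, against 4.62, 4.21 and 6.33 CPM in aged vehicle libraries (-0.94 ± 0.30, adjusted p = 0.0158), and by 1.64 ± 0.31 on the log2 scale under bexarotene.

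Of the remaining ligands, Ccl27a was called in both comparisons and each of the others in at most one of them. Cxcl14 averaged 18.3 ± 3.41 CPM in stroke and 4.91 ± 1.35 CPM in cells without a stroke under bexarotene (SD, n = 3 each, 1.89 ± 0.35) and had 0.67 ± 0.34 with vehicle, not called. Cxcl16 rose by 0.52 ± 0.14 under bexarotene, and had 0.25 ± 0.14 with vehicle, not called. Cxcl13 lay at 14.1, 16.0 and 37.6 CPM in stroke vehicle libraries, against 6.25, 13.4 and 13.2 CPM in aged vehicle libraries (1.04 ± 0.38, adjusted p = 0.0320), and was not called under bexarotene (0.39 ± 0.37). Ccl27a, a ligand of Ccr10, fell by 1.98 ± 0.48 with vehicle and by 2.00 ± 0.46 under bexarotene on the log2 scale, at levels of 0.521 ± 0.329 CPM in stroke vehicle and 2.11 ± 0.45 CPM in aged vehicle cells (SD, n = 3 each). Reads of Ccl27a and of Ccl21a are uncertain because these genes have near-identical copies, Ccl27b and Ccl21b. Ccl24 averaged 3.77 ± 0.52 CPM in stroke and 8.57 ± 0.66 CPM in cells without a stroke under bexarotene and fell there (-1.19 ± 0.33, not called without the libraries numbered 1 in every group, -1.11, adjusted p = 0.0730), while with vehicle it was not called (-0.53 ± 0.33). Cxcl17 fell with vehicle (0.239 ± 0.130 CPM in stroke and 1.31 ± 0.69 CPM in aged vehicle cells) and was not called under bexarotene. Ccl22, Ccl25, Cxcl9 and Cxcl12 were called in none of the 9 comparisons. Of these, Ccl22 averaged 1.34 ± 1.18 CPM in aged stroke vehicle cells and 0.255 ± 0.278 CPM in aged vehicle cells, and Ccl25 averaged 4.62 ± 0.87 CPM and 5.17 ± 1.81 CPM in those groups (SD, n = 3 each). The difference of the stroke effect between treatments, bexarotene minus vehicle, was called for none of these ligands, with log2 values of 1.22 ± 0.49 for Cxcl14, -0.65 ± 0.53 for Cxcl13, -0.66 ± 0.46 for Ccl24 and 1.36 ± 1.03 for Cxcl17.

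Of the 8 signalling receptors tested, 6 rose and 1 fell with stroke in vehicle cells, and 5 rose and 1 fell under bexarotene, the one that fell being Cxcr3 in both. Ccr7, Cxcr5 and Ccr9, among those that rose with vehicle, passed the count filter through stroke libraries. Ccr1, the receptor of Ccl3, Ccl5, Ccl6 and Ccl9, lay at 416, 411 and 474 CPM in stroke vehicle libraries, against 37.8, 44.5 and 45.4 CPM in aged vehicle libraries (3.35 ± 0.27, adjusted p = 8.42e-08). Under bexarotene it lay at 256, 533 and 306 CPM in stroke libraries, against 69.5, 63.0 and 77.0 CPM in libraries without a stroke (2.39 ± 0.26). The groups did not overlap in either comparison.

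Cxcr4, the receptor of Cxcl12, lay at 40.0, 23.5 and 32.5 CPM in stroke vehicle libraries, against 1.09, 1.96 and 1.54 CPM in aged vehicle libraries (4.39 ± 0.40, adjusted p = 1.14e-07), and rose by 3.09 ± 0.36 under bexarotene. Its ligand Cxcl12 averaged 3.82 ± 2.42 CPM in stroke vehicle and 1.72 ± 0.57 CPM in aged vehicle cells (SD, n = 3 each, not called). The scavenger of the same ligand, Ackr3, rose in both comparisons, to 2.65, 2.07 and 4.67 CPM in stroke vehicle libraries, against 0.906, 0.783 and 1.15 CPM in aged vehicle libraries (1.72 ± 0.51) and by 1.71 ± 0.47 under bexarotene. Ccr7, which guides dendritic cells to lymph nodes, had 324 counts in stroke vehicle and 3 in aged vehicle libraries, a ratio of 61.3 with a counting interval of 20.8 to 299. Cxcr5, the receptor of Cxcl13, had 61 counts in stroke vehicle and 3 in aged vehicle libraries (ratio 11.6, 3.77 to 57.5) and 71 in stroke bexarotene and 1 in aged bexarotene libraries (ratio 33.9, 5.90 to 1359). Ccr9, the receptor of Ccl25, had 34 counts in stroke vehicle and 3 in aged vehicle libraries (ratio 6.44, 2.02 to 32.8) and was not called under bexarotene. Ccr3 rose under bexarotene (5.08 ± 2.13 CPM in stroke and 1.81 ± 0.77 CPM in cells without a stroke, 1.49 ± 0.45) and missed the threshold with vehicle (0.99 ± 0.46, adjusted p = 0.0834).

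Several stroke calls with vehicle were lost when 1 library was left out, which also leaves fewer libraries in the fit. For Cxcl13 the log2 fold change dropped to 0.46 to 0.72 (adjusted p = 0.148 to 0.309, without aged vehicle 1 or stroke vehicle 3), against 1.04 with all libraries. Ccl8 had 0.97 to 1.20 (adjusted p = 0.0667 to 0.0843, without aged vehicle 1 or 3 or stroke vehicle 2) and Ccr9 1.95 to 2.54 (0.0818 to 0.124, without aged vehicle 1 or 2 or stroke vehicle 1). Without aged vehicle 3 or stroke vehicle 3, Cxcr3 had -0.77 to -0.67 (0.0735 to 0.0878) and Cxcl17 -2.07 to -2.00 (0.0505 to 0.0544), and Ackr3 had 1.32 (0.0589) without stroke vehicle 3. Without the libraries numbered 1 in every group, Ccr9 had 1.46 (adjusted p = 0.314), against 2.54 with all libraries. Under bexarotene Cxcl11 had 0.89 to 2.85 (0.0979 to 0.499, without aged bexarotene 2 or 3 or stroke bexarotene 2) and Ccr3 1.16 to 1.19 (0.0575 to 0.0580, without aged bexarotene 2 or stroke bexarotene 2), and neither was then called. Cxcl11 lay at 0.693, 6.59 and 0.417 CPM in stroke bexarotene libraries, with library 2 far above the others, against 0.721, 0 and 0.203 CPM in aged bexarotene libraries, and the groups overlapped. With the replicate number as a block, Cxcl11 was not called under bexarotene (2.66, adjusted p = 0.0957), and Cxcr2 (1.66, adjusted p = 0.0367) and Ccl25 (-0.81, adjusted p = 0.0411) were.

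**Figure D5:**
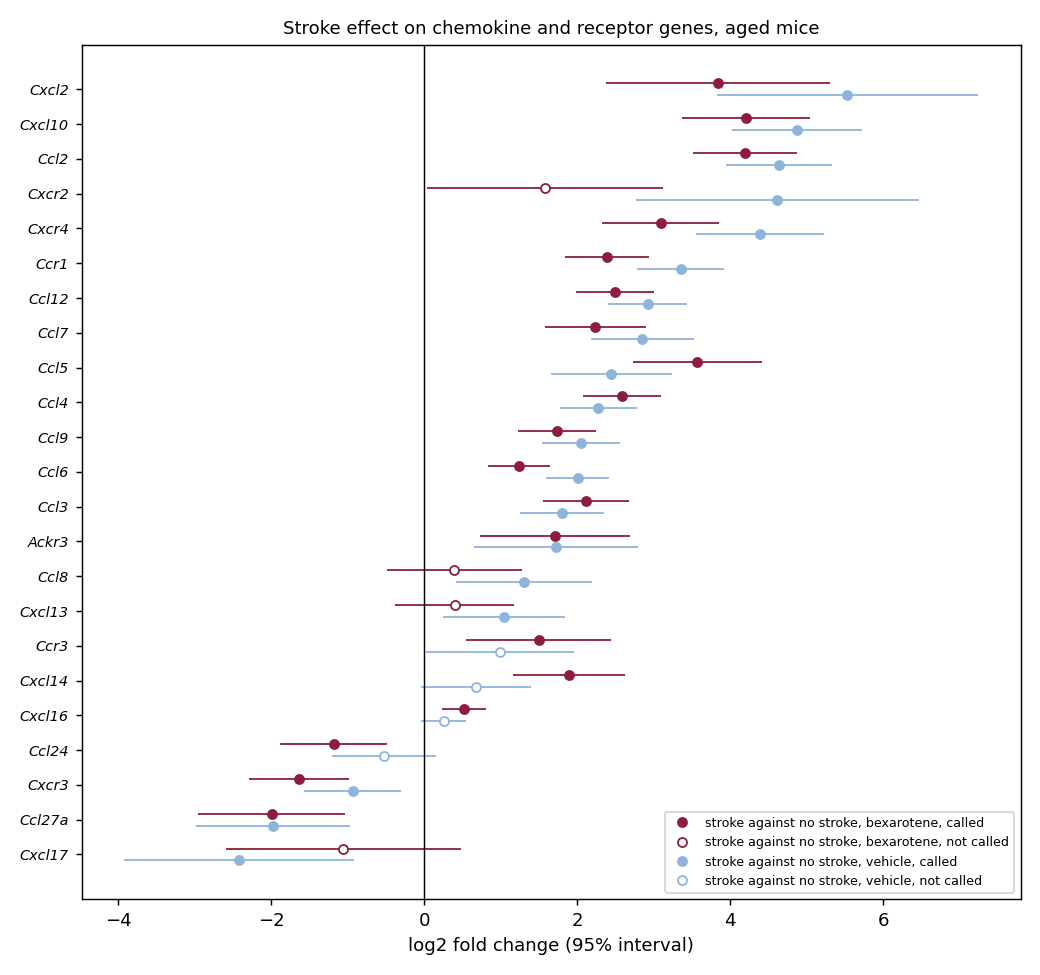
Log2 fold changes with stroke and their 95% intervals under bexarotene (dark red) and with vehicle (light blue) for 23 genes called in at least 1 comparison, filled where called. Ccr7, Ccr9, Cxcl3, Cxcl11 and Cxcr5 are left out because a group without a stroke held 3 counts or fewer, and the genes drawn below 0 are Ccl24, Cxcr3, Ccl27a and Cxcl17.

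Of the 24 genes too low to test, 7 were at 0 counts in all libraries: Ccl1, Ccl20, Ccl21a, Ccl26, Ccr4, Cxcl5 and Cxcl15. The other 17 were Ccl11, Ccl17, Ccl19, Ccl21b, Ccl27b, Ccl28, Cxcl1, Xcl1, Ccr6, Ccr8, Ccr10, Cxcr1, Cxcr6, Xcr1, Ackr1, Ackr2 and Ackr4, and their highest value was the 2.01 CPM of Cxcl1 in young vehicle library 3. A floor of 3 counts is 0.396 CPM in the shallowest library. By position, 14 of the 56 genes lie on chromosome 11, 11 on chromosome 5 and 10 on chromosome 9. On chromosome 11, 10 of the 11 tested genes were higher with stroke in vehicle cells and 4 with age, beside 27.2% and 1.26% of all genes, and Ccl5, Ccl9, Ccl6, Ccl3 and Ccl4 follow each other there without another protein-coding gene between them.

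Other genes of the pathway were followed as lists. Of 8 chemokine-related genes named outside this pattern, Pf4, a platelet and macrophage chemokine, fell with age in vehicle cells (32.4 CPM in aged and 64.0 CPM in young vehicle cells, -0.98 ± 0.21). With stroke in vehicle cells 4 of the 8 rose and 3 fell, beside 27.2% of all genes higher and 21.1% lower. The same counts held under bexarotene, beside 26.8% of all genes higher and 21.2% lower. Cx3cr1, the fractalkine receptor of microglia, was among those that fell (1608 CPM in stroke vehicle and 4666 CPM in aged vehicle cells, -1.54 ± 0.14), and Ccrl2, an atypical receptor that binds chemerin, was among those that rose (1.81 ± 0.21). Of 33 genes that carry the receptor signal, edgeR called 0 in either age comparison. Among all genes it called 1.70% with vehicle and 0.960% under bexarotene. At an unadjusted p under 0.05 stood 4 of the 33 with vehicle and 6 under bexarotene, and DESeq2 called 2 and 0. In the 3 bexarotene comparisons edgeR also called 0 of the 33. Among all genes it called 0.509% in young, 0.258% in aged and 0.0580% in aged stroke mice. At an unadjusted p under 0.05 stood 5 of the 33 in young, 2 in aged and 1 in aged stroke mice, and DESeq2 called 1, 0 and 0. With stroke 9 rose and 13 fell in each comparison, beside 27.2% of all genes higher and 21.1% lower with vehicle and 26.8% higher and 21.2% lower under bexarotene. Those with the lowest p in vehicle cells were the engulfment adaptor Elmo1 (-1.19 ± 0.08), the receptor kinase Grk6 (0.97 ± 0.09) and the G protein regulator Rgs10 (-1.26 ± 0.12).

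Of 21 transcription factors and regulators that act at chemokine genes, 2 rose with age in vehicle cells, Bcl6 (0.55 ± 0.12) and Irf7 (1.30 ± 0.29), beside 1.26% of all genes called higher. Under bexarotene Bcl6 alone was called with age (0.70 ± 0.12), beside 0.676% of all genes called higher. With bexarotene edgeR called 0 of the 21, beside 0.509%, 0.258% and 0.0580% of all genes in young, aged and aged stroke mice. At an unadjusted p under 0.05 stood 3 in young, 0 in aged and 3 in aged stroke mice, and DESeq2 called 0 in each. With stroke 12 rose and 5 fell in vehicle cells, and 13 rose and 4 fell under bexarotene, beside 48.3% and 48.0% of all genes called in these comparisons. In vehicle cells Stat2 rose by 1.76 ± 0.11, Irf7 by 4.22 ± 0.28 and Hif1a by 1.45 ± 0.15. Nfkb1 (-0.93 ± 0.10) and Rela (-0.40 ± 0.09), which encode NF-kappaB subunits, were among the 5 that fell and were chosen after their values were seen. Values of Nfkb2, Rel, Relb, Nfkbia and Nfkbiz, also on this list, are not given, so no statement is made for the NF-kappaB genes as a set. Early response genes, which also rise when tissue is dissociated, summed to 6461 to 9692 CPM in stroke vehicle and 2451 to 4119 CPM in aged vehicle libraries. Of these 14 genes 11 rose and 2 fell with stroke in vehicle cells, beside 27.2% of all genes higher and 21.1% lower. With age in vehicle cells edgeR called 0 of them (1 at an unadjusted p under 0.05, 1 by DESeq2), beside 1.70% of all genes. Their part in the chemokine values was not tested.

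The authors' deposited tables of 4 comparisons list genes with an adjusted p below 0.05 and no stroke comparison is among them. The authors' deposited table for age in vehicle cells lists 10 of the 56 genes, Ccl3 (1.78), Ccl4 (1.56), Ccl12 (1.32), Cxcl13 (6.12), Cxcl16 (0.95), Ccl8 (1.68), Cxcl14 (2.01), Cxcl10 (1.33), Ccl24 (-1.15) and Cxcl2 (-0.56), with the log2 fold change of that table in brackets. The authors' deposited table for bexarotene in young mice lists Ccl6 (0.92) and Ccl9 (0.66). The authors' deposited table for bexarotene in aged mice lists Ccl6 (0.91), Ccr1 (0.61), Ccl3 (-0.53), Ccl4 (-0.39), Cxcl2 (1.30) and Cxcr2 (0.60), and the one after stroke, again the authors' deposited table, lists Ccl8 (-0.67) and Cxcl14 (0.66). The edgeR test made fewer calls of these genes, and the sign of each listed fold change was the same in both. Sizes were close for Ccl3 with age (1.78 deposited, 1.82 by edgeR). They were far apart for Cxcl2 with age (-0.56 and -1.93) and for Cxcr2 with bexarotene in aged mice (0.60 and 2.47). How the deposited fold changes were estimated is not given, so the 2 measures may differ and their sizes are not compared further.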

How the data were processed

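The authors deposited a table of raw read counts per gene, with Ensembl gene identifiers, for all 18 libraries. Per the labels' protocols, RNA was taken with a column kit and libraries were made with SMART-Seq V4 PLUS. The submitters' processing notes name build GRCm39, Trimmomatic 0.40, STAR 2.7.10a, GATK and R 4.4.2. The sources used here name no counting tool or strand setting, and reads of overlapping antisense genes cannot be separated. For 4 comparisons the authors deposited result tables with a mean signal, a log2 fold change and a p-value per gene, and every gene in them has an adjusted p below 0.05. Which tool made them is not given in these sources.

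Identifiers were matched to symbols with the GENCODE annotation of GRCm38 and a table of gene names (52033 of 57010), and the 4977 without a symbol held 0.326% of counts. Some genes of the family and of the other lists are not reported here. Genes with enough counts by edgeR's filterByExpr (15528) were scaled by TMM (factors 0.937 to 1.05) and fitted once over 18 libraries with edgeR 4.0.16 (glmQLFit, robust, group as the factor). The 9 comparisons used glmQLFTest with Benjamini-Hochberg adjustment over all genes and a threshold of 0.05, and the fit was tested on simulated data. SE is the log2 fold change divided by the square root of F. CPM per kilobase used the summed exon length. Every member called in at least 1 comparison is named with its values. Other lists are given as counts with up to 3 genes of lowest p, apart from Pf4, Cx3cr1, Ccrl2, Nfkb1 and Rela, which were chosen after their values were seen. The members, lists and marker lists were chosen with earlier results of these data known. Replicates differed by more than sampling noise (chi-square per degree of freedom 5.77 to 36.2). Nothing says whether a library is 1 animal or a pool, so p-values measure the spread between these libraries. Counting intervals and floors cover counting error only. Alternatives were DESeq2 1.42.0, its size factors in edgeR (RLE), no filter, a replicate block, fits to the groups compared alone, and leaving out libraries.

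Groups share replicate numbers. The numbers were taken to pair the samples where all 3 correlations of same-numbered deviations were over 0.1, which held for bexarotene in young mice (0.259, 0.276 and 0.140) and for age under bexarotene (0.109, 0.300 and 0.126) and for none of the other 5 comparisons of 2 groups. The main fit has no replicate block for any comparison. With the block, 1 gene was called for bexarotene in young mice, as in the main fit, and 5 for age under bexarotene, against 6 in the main fit.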

Additional observations from a re-analysis of the deposited data

How the results depend on the processing

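Counts are of the 56 genes called, since other settings also test genes outside the 32. Without the filter on low counts they were 12 for age in vehicle cells, 14 for age under bexarotene, 8, 9 and 6 for bexarotene in young, aged and aged stroke mice, and 2 and 5 for the differences of the bexarotene effect by age and by stroke; the 12 and the 9 each include Xcr1, the 1 gene gained in these 7 comparisons that is outside the 32, and the cause was not tested. Without replicate 1 of every group 1 gene was called for age under bexarotene and 0 for bexarotene in young mice. DESeq2 called 2 in young mice, and fits to the groups compared alone called 0 in young and 2 in aged mice. RLE scaling called 0 in aged mice. Without 1 library in turn the counts ran from 5 to 7 for age in vehicle cells, 2 to 4 for age under bexarotene, 0 to 1 for bexarotene in each of the 3 settings, 21 to 26 for stroke with vehicle, 21 to 26 for stroke under bexarotene and 0 to 0 for both differences. No fold change of a member called in the main fit reversed its sign in these settings. The signs of values not called there were not compared. Stroke counts stayed within 1.5 times in every alternative.

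With the replicate number as a block, 6 genes were called for age in vehicle cells, 5 for age under bexarotene, 1, 1 and 0 for bexarotene in young, aged and aged stroke mice, 24 for stroke with vehicle, 24 for stroke under bexarotene and 0 for both differences. Ccl8 (age) and Cxcl11 (stroke) lost and Cxcr2 and Ccl25 (stroke) gained a call under bexarotene, with the values given above, and the block changed no other call. Where the numbers did not pair the samples, the correlations were 0.260, 0.243 and -0.062 for bexarotene in aged mice, 0.037, -0.062 and -0.113 after stroke, 0.386, 0.229 and -0.014 for age in vehicle cells, 0.213, 0.058 and 0.035 for stroke with vehicle and 0.129, 0.116 and 0.030 for stroke under bexarotene.

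Over all genes, DESeq2 called 529, 349, 209, 97 and 53 genes for age in vehicle cells, age under bexarotene, and bexarotene in young, aged and aged stroke mice, and 3 and 2 for the differences; edgeR called 264, 149, 79, 40, 9, 0 and 0, and without 1 library in turn 126 to 255, 82 to 117, 27 to 70, 9 to 35, 1 to 17, 0 to 1 and 0 to 0. No filter gave 677, 683, 457, 339, 419, 138 and 256. Without replicate 1 of every group edgeR called 107, 53, 17, 26 and 3 for the first 5. Fits to the groups alone called 36 for bexarotene in young and 5 in aged stroke mice, RLE scaling 24 in aged mice and the block 20 in aged stroke mice. In other settings Ccl8 lost its age call under bexarotene (groups alone, adjusted p = 0.152), Cxcl14 lost its age call in vehicle cells (groups alone, adjusted p = 0.0504), and with stroke in vehicle cells Cxcl13 (groups alone 0.0923, without replicate 1 of every group 0.0981), Cxcr3 (groups alone 0.0578), Ackr3 (without replicate 1 of every group 0.0527) and Ccr9 (no filter 0.0521, without replicate 1 of every group 0.314) did. Under bexarotene Ccl24 lost its stroke call without replicate 1 of every group (0.0730). The depth, with a floor of 3 counts at up to 0.396 CPM, limits the genes near 0.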
